A study of Gallus gallus with 6 samples.

Results

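RNA from genes of the chicken Z chromosome was examined in the basilar papilla, the auditory sensory organ of the inner ear, with the W chromosome as a comparison. The members are all genes that the deposited FPKM table lists on Z and that have at least 10 counts summed over the 6 libraries of the count table. These are 647 of the 848 Z genes in the count table, which holds 15955 genes in all. The W comparison has 16 listed genes, of which 9 reach 10 counts, and the autosomal background has 12471 such genes.

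Basilar papillas of chicken embryos were taken on embryonic day 6 for RNA sequencing. On embryonic day 3 the right otocyst, the precursor of the inner ear, had received RCAS(A)-Wnt9a, a replication-competent avian retrovirus that carries Wnt9a, or RCAS(A), the parent virus without it. Both groups therefore carried a replicating virus, and no uninfected tissue was compared. Each group had 3 biological replicates (RCAS(A)-Wnt9a replicates 1, 2 and 3 and RCAS(A) replicates 2, 3 and 4), and each replicate was 1 pool of 24 papillas. The labels used here give neither the sex of the embryos nor the share of infected cells.

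In birds the male carries a pair of Z chromosomes and the female carries a Z and a W. The Z has no chromosome-wide dosage compensation of the mammalian kind, so many Z genes give more RNA in males than in females, while W genes are transcribed in females alone. A pool of embryos of both sexes therefore holds RNA from Z and W in amounts that move with its sex make-up. Z in chicken also carries regulators known from the inner ear, among them ISL1 and the neurotrophin receptor gene NTRK2.

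The 6 libraries held 19200235 to 23017150 counts, with pairwise correlations of log2 CPM across genes of 0.992 to 0.996 within groups. WNT9A ranged from 427 to 1340 CPM in the RCAS(A)-Wnt9a pools, against 6.87 to 10.3 CPM in the RCAS(A) pools, so the libraries matched their labels. CPM here is the count scaled to library size after TMM correction for library composition. The files name genes only in the authors' tables of changed genes, so the cell type markers that could be measured were picked for a difference between these groups, and their levels are no independent measure of cell make-up. Of 12 sensory epithelium markers 6 were named, with a summed level of 332 to 359 CPM in RCAS(A)-Wnt9a and 407 to 453 CPM in RCAS(A). They did not move together by edgeR's test: SOX2, ISL1 of Z, TECTB and BDNF fell, OTX2 missed the threshold, and LMX1A rose, with 98.8 to 126 CPM in RCAS(A)-Wnt9a and 59.7 to 72.5 CPM in RCAS(A). The 4 named of 7 periotic mesenchyme markers summed to 317 to 344 CPM in RCAS(A)-Wnt9a and 268 to 290.0 CPM in RCAS(A). Most of that sum was TBX18, which missed the threshold as ACAN did, while PRRX1 rose and LUM fell. The 2 named of 5 vessel and blood markers, FLT1 and TFRC, both rose and summed to 176 to 187 CPM in RCAS(A)-Wnt9a and 149 to 155 CPM in RCAS(A), and of 7 markers of neurons and glia NTRK2 of Z alone was named. None of the named markers was at 0 in any library, and the others were not analysed here.

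The 16 listed W genes held a small share of the counts, and this share differed between the pools. Counts on the 16 W genes made up 0.0172%, 0.0182% and 0.0123% of the counts with a listed position in RCAS(A)-Wnt9a replicates 1, 2 and 3, against 0.0158%, 0.0172% and 0.0162% in RCAS(A) replicates 2, 3 and 4. RCAS(A)-Wnt9a replicate 3 stood lowest, and its Wilson 95% interval of 0.0118% to 0.0128%, which covers counting error only, lay below that of each other library. The lowest of the others was RCAS(A) replicate 2, with an interval of 0.0153% to 0.0163%. The group means were 0.0159% ± 0.0032 in RCAS(A)-Wnt9a and 0.0164% ± 0.00072 in RCAS(A) (SD, n = 3 each), a difference smaller than the spread between pools (exact two-sided permutation test, p = 0.9, with a smallest possible p of 0.1 at this size). In bulk RNA, fewer female cells in a pool and less W RNA per cell cannot be told apart.

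The W signal came from few genes. ENSGALG00000014184 and ENSGALG00000005785 held 70.9% of all W counts, 3 W genes had no count and 4 had 1 to 9. ENSGALG00000005785 (W, 22484 to 138725 in galGal4 as listed) had 59.0, 66.4 and 39.3 CPM in RCAS(A)-Wnt9a replicates 1, 2 and 3, compared with 54.9, 57.0 and 55.4 CPM in RCAS(A) replicates 2, 3 and 4. ENSGALG00000014184 (W, 345219 to 411011) had 60.3, 60.04 and 45.1 CPM in RCAS(A)-Wnt9a, against 52.9, 63.3 and 56.7 CPM in RCAS(A). For both, RCAS(A)-Wnt9a replicate 3 was the lowest of the 6 libraries and the groups overlapped. This library was the lowest for 4 of the 6 W genes with enough counts to be tested, and RCAS(A)-Wnt9a replicate 2 was the highest for 3 of them. None of the 6 passed edgeR's quasi-likelihood test between groups, and 0 of 6 had an unadjusted p under 0.05 in it. DESeq2 and limma-voom also called 0 of 6. The files do not pair W identifiers with names. Reads of W genes may be split with near-identical Z partners.

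Z genes moved the opposite way between libraries. Counts on the 647 Z genes made up 4.03%, 3.90% and 4.22% of the counts with a listed position in RCAS(A)-Wnt9a replicates 1, 2 and 3, against 4.10%, 3.98% and 4.04% in RCAS(A) replicates 2, 3 and 4. RCAS(A)-Wnt9a replicate 3, lowest for W, was highest for Z, and RCAS(A)-Wnt9a replicate 2, highest for W, was lowest for Z. The order of the other 4 libraries was not settled: RCAS(A)-Wnt9a replicate 1 and RCAS(A) replicate 3 were nearly level in W share, and neighbours in the order changed places when the W gene of highest count or the 10 Z genes of highest count were left out. The libraries at both ends kept their places in these alternatives. The mean Z share was 4.05% ± 0.16 in RCAS(A)-Wnt9a and 4.04% ± 0.060 in RCAS(A) (SD, n = 3 each), a difference smaller than the spread between pools.

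For the libraries at both ends, the same order was found in the median over Z genes. For each gene, the deviation of a library is its log2(CPM + 0.5) minus the mean over the 6 libraries. Over the 595 tested Z genes the median deviation was 0.0029, -0.046 and 0.075 in RCAS(A)-Wnt9a replicates 1, 2 and 3, against 0.0093, -0.020 and -0.0038 in RCAS(A) replicates 2, 3 and 4. Over the 11376 tested autosomal genes it stayed between -0.0030 and 0.0061. In RCAS(A)-Wnt9a replicate 3, 68.2% of Z genes and 49.1% of autosomal genes lay above their own mean. In RCAS(A)-Wnt9a replicate 2 the shares were 31.9% of Z genes and 50.8% of autosomal genes.

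**Figure D1:**
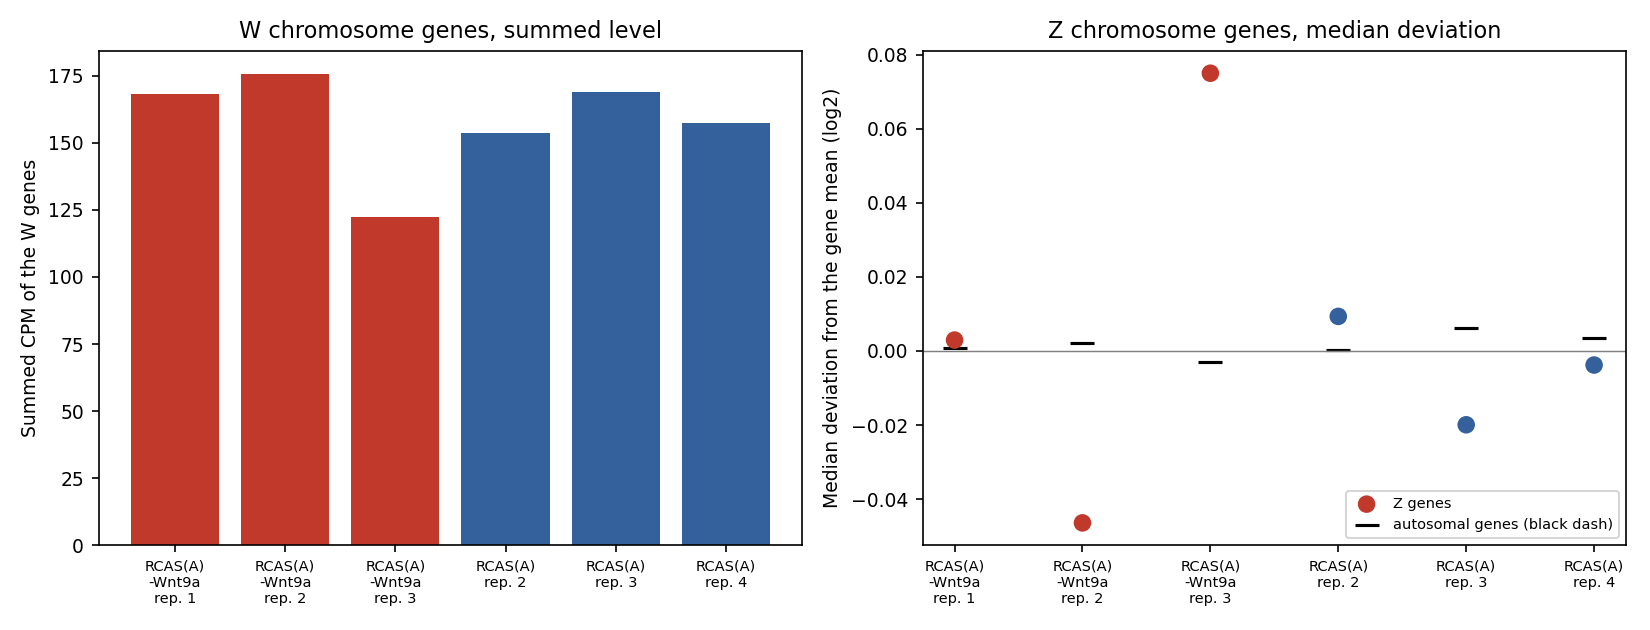
Left, summed CPM of the 16 W genes in each library; right, median over the tested Z genes of the deviation from each gene's own mean (log2), with autosomal genes as black dashes. RCAS(A)-Wnt9a replicate 3 has the lowest W level, 122 CPM, and the highest Z median, 0.075, and RCAS(A)-Wnt9a replicate 2 has the highest W level, 175 CPM, and the lowest Z median, -0.046.

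RCAS(A)-Wnt9a replicate 3 was the highest of all 6 libraries for 40.7% of the tested Z genes and for 20.02% of the autosomal genes. Within the RCAS(A)-Wnt9a group alone it was the highest for 340 of the 595 Z genes, or 57.1%, against 34.5% of autosomal genes. The median SD of log2(CPM + 0.5) per gene was wider for Z within the RCAS(A)-Wnt9a group, at 0.12, than within the RCAS(A) group, at 0.087. For all tested genes these medians were 0.11 in RCAS(A)-Wnt9a and 0.087 in RCAS(A). Within RCAS(A)-Wnt9a, among chromosomes with at least 100 tested genes, 25, 26 and 27 had wider medians than Z, at 0.171, 0.124 and 0.125 against 0.123. So did W, at 0.217 over 6 tested genes, chromosome 16, at 0.276 over 30, and LGE64, at 0.254 over 5. These are descriptions of 6 pools, and no test was made of them.

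Chromosomes other than Z also deviated in these libraries. In RCAS(A)-Wnt9a replicate 3 the medians of chromosomes 1 to 5 lay between 0.00094 and 0.028, below the 0.075 of Z. Over all 27 autosomes with at least 100 tested genes they reached from -0.12 to 0.028. In RCAS(A)-Wnt9a replicate 2 the autosomal medians lay between -0.014 and 0.085, above the -0.046 of Z. Z was thus above the range of the autosomes in RCAS(A)-Wnt9a replicate 3 and below it in RCAS(A)-Wnt9a replicate 2. Chromosomes 1 to 4 had smaller medians of the same sign as Z in both libraries. These lay at 0.011 to 0.028 in replicate 3 and -0.014 to -0.0067 in replicate 2. Chromosome 5 was above 0 in both, at 0.00094 and 0.0035. Some small autosomes deviated by as much as Z in the other direction, which was that of W. Chromosome 25 had -0.12 in replicate 3 and 0.085 in replicate 2, and W had -0.29 and 0.13. The direction of these shifts was thus not particular to Z and W, and its cause was not tested. In RCAS(A) replicate 3 the Z median of -0.020 was also below the autosomal range of -0.0091 to 0.037.

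**Figure D2:**
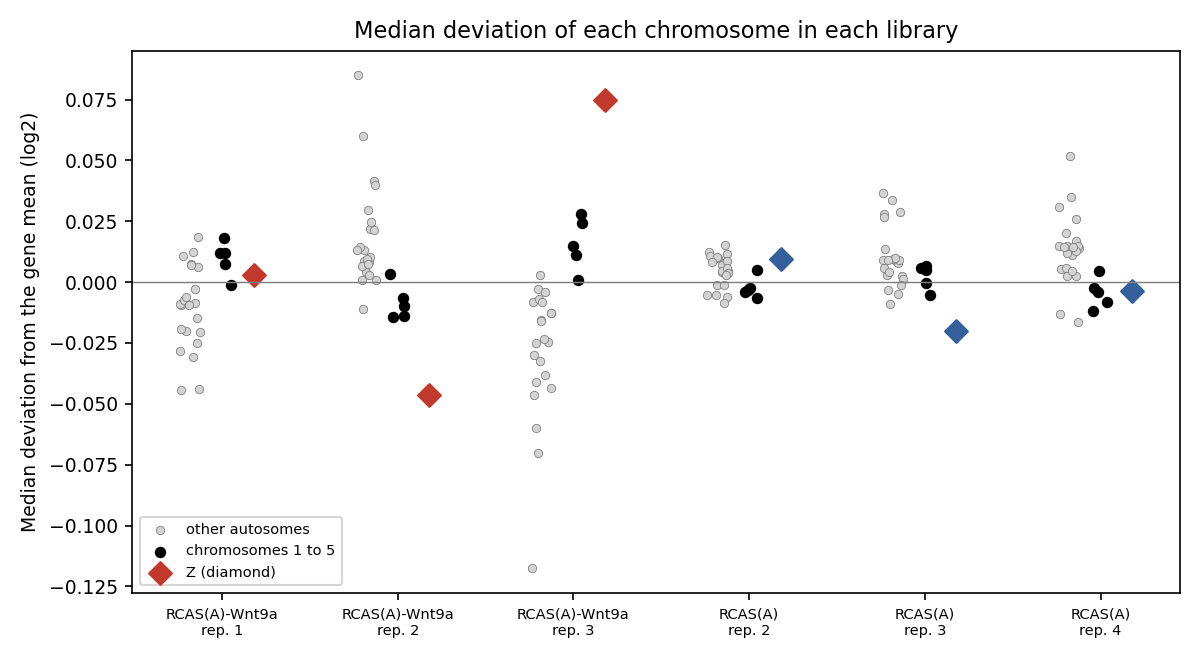
Median deviation from the gene mean (log2) in each library, for Z (diamonds), chromosomes 1 to 5 (black) and the other autosomes with at least 100 tested genes (grey). In RCAS(A)-Wnt9a replicate 3 the Z diamond, at 0.075, is above every autosome, and in RCAS(A)-Wnt9a replicate 2, at -0.046, it is below every autosome.

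The deviation ran along most of Z. In 9 successive windows of 10 Mb from the start of the listed coordinates, the median in RCAS(A)-Wnt9a replicate 3 was positive in each, at 0.017 in the first and 0.060 to 0.11 in the others. In RCAS(A)-Wnt9a replicate 2 it was negative in each, at -0.083 to -0.020. The first window, with 90 tested genes, had the median of smallest absolute size in both libraries. In the RCAS(A) libraries the window medians lay between -0.044 and 0.024 and changed sign along the chromosome.

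**Figure D3:**
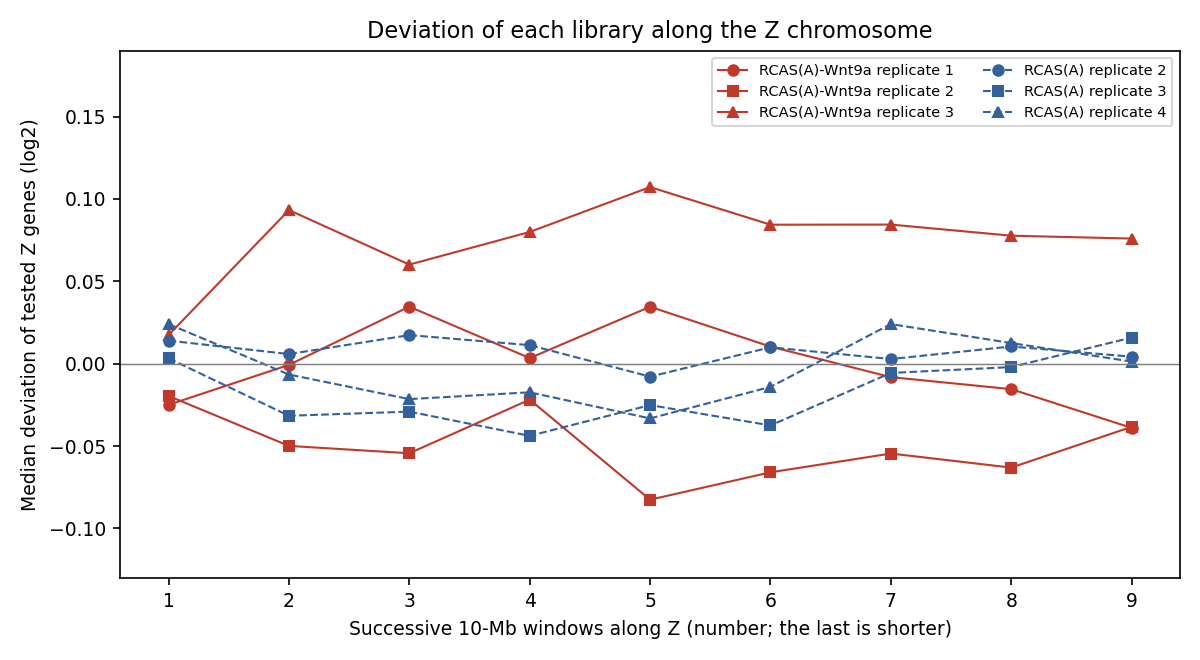
Median deviation (log2) of tested Z genes in successive 10-Mb windows, 1 line per library. RCAS(A)-Wnt9a replicate 3 lies above 0 in all 9 windows and is closest to 0 in the first, at 0.017, and RCAS(A)-Wnt9a replicate 2 lies below 0 in all 9.

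Per unit of length, Z genes were expressed at a lower level than autosomal genes in both groups. The authors' FPKM table gives 1 pooled value per group, so these levels have no spread. Among genes of at least 1 FPKM in both groups, the median of the 533 Z genes was 16.3 FPKM in RCAS(A)-Wnt9a and 15.7 FPKM in RCAS(A). The median of 10231 autosomal genes was 20.4 FPKM in RCAS(A)-Wnt9a and 20.2 FPKM in RCAS(A). The ratio of Z to autosomes was 0.803 in RCAS(A)-Wnt9a and 0.775 in RCAS(A). Of the 25 autosomes with at least 100 such genes, 1 had a lower median than Z in RCAS(A)-Wnt9a and 0 did in RCAS(A). The Z genes spanned a wide range of levels: 33 of the 647 reached 100 FPKM in RCAS(A)-Wnt9a and 30 in RCAS(A), while 114 in RCAS(A)-Wnt9a and 112 in RCAS(A) were below 1 FPKM. The highest, ENSGALG00000015082 (Z, 33595464 to 33600075), had 2218 FPKM in RCAS(A)-Wnt9a and 2359 FPKM in RCAS(A). ENSGALG00000002696 followed with 2122 FPKM in RCAS(A)-Wnt9a and 2266 FPKM in RCAS(A), then ENSGALG00000014833 with 1729 FPKM in RCAS(A)-Wnt9a and 1783 FPKM in RCAS(A).

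The group comparison asks which Z genes respond to forced Wnt9a. Of the 647 Z genes, 595 passed edgeR's filter on low counts and were tested in a fit over 12133 genes, and 52 did not, with at most 59 counts each. At a Benjamini-Hochberg adjusted p under 0.05, 13 Z genes changed, 5 higher and 8 lower with RCAS(A)-Wnt9a. Over all tested genes 2.27% were called, 1.43% higher and 0.841% lower, and over Z genes 2.18%, 0.84% higher and 1.34% lower, so the share of Z genes called was close to the background. The 2 directions were not compared by a test. The groups did not overlap for any of the 13. This was so for 95 of the 595 Z genes, or 16%, and for 19% of all tested genes, and an unadjusted p under 0.05 was found for 12.3% of Z genes and 12.8% of all tested genes. The changes were moderate, with a median absolute log2 fold change of 0.49 among the 13, and ALPK2 alone changed by at least 2-fold.

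**Figure D4:**
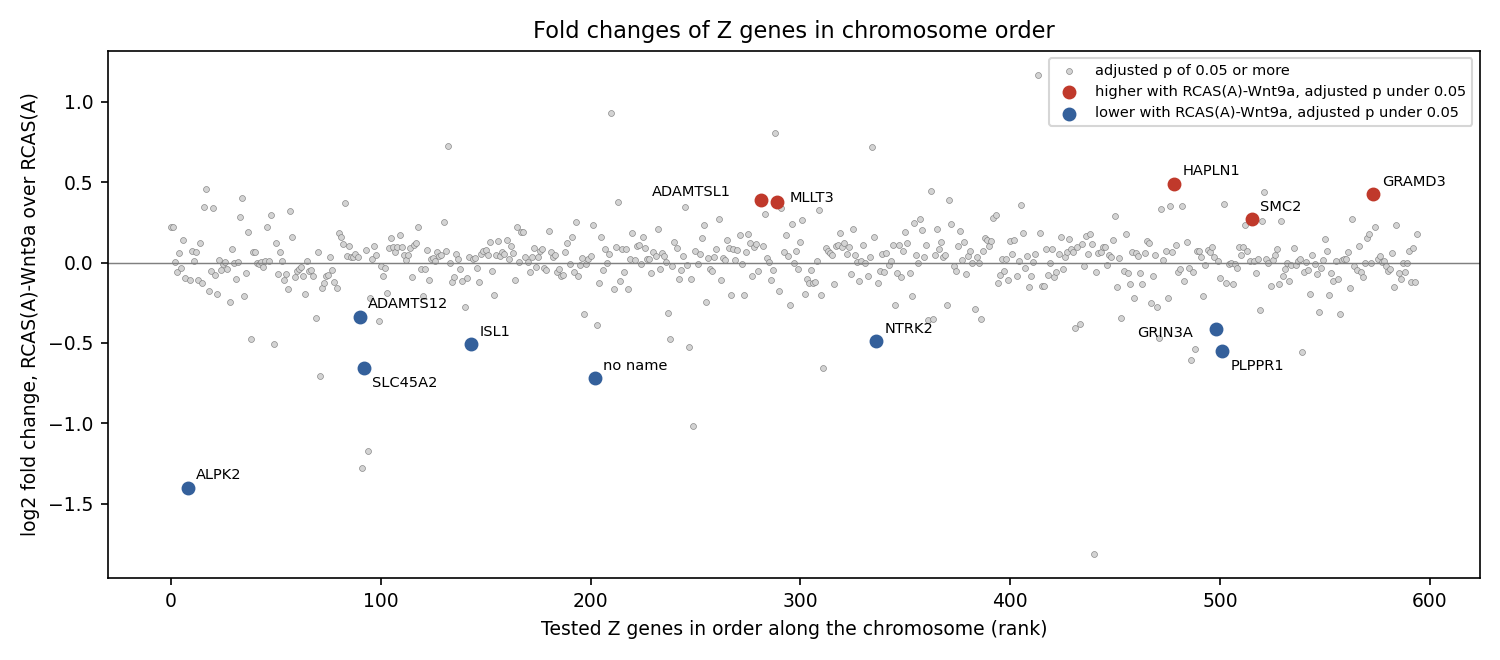
log2 fold change (RCAS(A)-Wnt9a over RCAS(A)) of the 595 tested Z genes in their order along the chromosome, with the 5 higher genes in red and the 8 lower genes in blue. Most genes lie near 0 and ALPK2, at -1.40, is the lowest of the changed genes.

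The median log2 fold change of the 595 Z genes was 0.022, and 58.3% were positive, against -0.0050 and 48.5% for autosomal genes. Of the 28 chromosomes with at least 100 tested genes, Z had the highest median, next to an autosomal maximum of 0.017. Without RCAS(A)-Wnt9a replicate 3 the Z median was -0.010 and 46.9% of Z genes were positive, beside -0.0032 and 49.1% for autosomal genes. With the log2 summed W level of each library as a covariate the Z median was 0.0046 and 52.3% were positive. In that fit the autosomal median was -0.0070 and 47.7% of autosomal genes were positive. Among the fits that left out 1 library, only that without RCAS(A)-Wnt9a replicate 3 gave a negative Z median. The Z median was 0.0091 without RCAS(A) replicate 3 and 0.052 without RCAS(A)-Wnt9a replicate 2. The part of sex make-up in these shifts was not tested.

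With the W level as a covariate all 13 genes were called again with the same sign, and the largest shift of a log2 fold change among them was 0.051. In that fit 16 of the 595 Z genes were called, or 2.69%, against 2.32% of all tested genes. The mean summed W level was close in the groups, at 155 CPM in RCAS(A)-Wnt9a and 160 CPM in RCAS(A). The covariate therefore left a group log2 fold change little room to move, and the repeated calls are no separate check on sex make-up. The genes added to the calls included PCSK1, a prohormone convertase gene and the single named Z gene of the axon and synapse list, and ENSGALG00000028005, a gene without a name. PCSK1 had 29.6, 30.1 and 37.5 CPM in RCAS(A)-Wnt9a, against 38.4, 41.2 and 44.0 CPM in RCAS(A), with replicate 3 nearest to the RCAS(A) pools. Its log2 fold change was -0.35 (edgeR adjusted p = 0.101) without the covariate and -0.39 (edgeR adjusted p = 0.0268) with it.

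Names could be paired with 27 of the 647 Z genes, all from the authors' tables of changed genes, so these were chosen on these libraries. The counts of each group below are therefore no evidence on its direction or on how often its genes change. Of these 27, 26 were tested, and 5 rose, 7 fell and 14 missed the threshold. Positions are those listed in the files for galGal4.

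Among regulators known from the inner ear, 3 named members lie on Z, of which 2 fell and 1 missed the threshold. ISL1 (15002783 to 15016470), a LIM homeobox transcription factor of prosensory cells and neurons, had 95.5, 98.5 and 114 CPM in RCAS(A)-Wnt9a replicates 1, 2 and 3, compared with 151, 152 and 134 CPM in RCAS(A) replicates 2, 3 and 4. All RCAS(A)-Wnt9a pools were below all RCAS(A) pools, and replicate 3 was the highest of its group. The log2 fold change was -0.51 (edgeR adjusted p = 0.0030, SE 0.077), and -0.54 with the W covariate (edgeR adjusted p = 0.00115). NTRK2 (40148866 to 40355175), the receptor for the neurotrophin BDNF, had 69.3, 73.2 and 64.5 CPM in RCAS(A)-Wnt9a, against 110, 90.9 and 90.2 CPM in RCAS(A). The groups did not overlap, and RCAS(A) replicate 2 stood above the other RCAS(A) pools. Its log2 fold change was -0.49 (edgeR adjusted p = 0.0060, SE 0.082). RORB (36402032 to 36535271), an orphan nuclear receptor gene, had 13.4, 23.1 and 24.8 CPM in RCAS(A)-Wnt9a, against 33.9, 28.7 and 33.9 CPM in RCAS(A). The spread within RCAS(A)-Wnt9a was wide, with replicate 1 lowest, and the log2 fold change of -0.66 missed the threshold (edgeR adjusted p = 0.256, SE 0.22).

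All 3 named members of the matrix and proteolysis list changed, 2 up and 1 down, beside 2.18% of all tested Z genes. Their names came from tables of changed genes, so that share was set by the choice. HAPLN1 (62344744 to 62440821), a link protein that ties proteoglycans to hyaluronan, had 83.7, 81.7 and 81.4 CPM in RCAS(A)-Wnt9a, against 57.0, 63.0 and 55.6 CPM in RCAS(A). The RCAS(A)-Wnt9a pools lay close together and above all RCAS(A) pools, with a log2 fold change of 0.49 (edgeR adjusted p = 0.00115, SE 0.066). ADAMTSL1 (32976701 to 33409919), a secreted matrix protein related to the ADAMTS proteases, had 106, 106 and 100 CPM in RCAS(A)-Wnt9a, against 87.7, 70.9 and 79.7 CPM in RCAS(A). It was higher in every RCAS(A)-Wnt9a pool, with a log2 fold change of 0.39 (edgeR adjusted p = 0.0145, SE 0.075). ADAMTS12 (10001893 to 10166119), a metalloprotease gene, had 83.2, 91.5 and 98.1 CPM in RCAS(A)-Wnt9a, against 121, 107 and 116 CPM in RCAS(A). It was lower in every RCAS(A)-Wnt9a pool, with a log2 fold change of -0.34 (edgeR adjusted p = 0.0265, SE 0.073). RCAS(A)-Wnt9a replicate 3 was the highest of its group for ADAMTS12 and the lowest for HAPLN1 and ADAMTSL1. Among the 13 called Z genes that library was highest of its group for 7, beside 57.1% of all tested Z genes. It was also the lowest of its group for NTRK2, PLPPR1 and ENSGALG00000004518. The named mesenchyme markers, themselves picked for a difference between these groups, summed to 317 to 344 CPM in the RCAS(A)-Wnt9a pools and 268 to 290.0 CPM in the RCAS(A) pools with PRRX1 higher and LUM lower, and their part in these matrix genes was not tested.

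SMC2, MLLT3 and GRAMD3 rose. SMC2 (66288452 to 66312320), a subunit of the condensin complex and the single named member of the cell cycle list, had 381, 363 and 393 CPM in RCAS(A)-Wnt9a, against 324, 315 and 303 CPM in RCAS(A). All RCAS(A)-Wnt9a pools were higher, by a small margin, with a log2 fold change of 0.27 (edgeR adjusted p = 0.0307, SE 0.060). MLLT3 (33889452 to 34000379), a component of the super elongation complex, had 73.4, 67.9 and 79.7 CPM in RCAS(A)-Wnt9a, against 56.8, 52.0 and 61.0 CPM in RCAS(A), and a log2 fold change of 0.38 (edgeR adjusted p = 0.0198, SE 0.078). GRAMD3 (78775849 to 78810508), a GRAM domain gene, had 111, 113 and 132 CPM in RCAS(A)-Wnt9a, against 87.9, 90.5 and 86.2 CPM in RCAS(A). In MLLT3 and GRAMD3 replicate 3 was the highest RCAS(A)-Wnt9a pool, and no pool overlapped with the RCAS(A) range. The log2 fold change of GRAMD3 was 0.43 (edgeR adjusted p = 0.00549, SE 0.072), and 0.40 with the W covariate.

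PLPPR1 and GRIN3A, both known from neurons, fell. PLPPR1 (64961496 to 65028223), a phospholipid phosphatase-related membrane protein of growing neurites, had the smallest p of all Z genes. It had 74.8, 81.9 and 72.8 CPM in RCAS(A)-Wnt9a, against 115, 115 and 106 CPM in RCAS(A), and a log2 fold change of -0.55 (edgeR adjusted p = 0.000513, SE 0.066). GRIN3A (64830089 to 64898868), an NMDA receptor subunit gene that lies 3 tested genes away from PLPPR1, had 22.8, 29.2 and 26.6 CPM in RCAS(A)-Wnt9a, against 34.3, 34.8 and 35.7 CPM in RCAS(A). The RCAS(A) pools were tightly grouped and the RCAS(A)-Wnt9a pools all lower, with a log2 fold change of -0.41 (edgeR adjusted p = 0.0369, SE 0.095). The genes tested between them had log2 fold changes of 0.013 and -0.096 and were not called.

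The remaining falls were in SLC45A2, ALPK2 and a gene without a name. SLC45A2 (10185691 to 10204950), a membrane transporter of pigment cells, had 44.4, 37.3 and 46.2 CPM in RCAS(A)-Wnt9a, against 65.6, 73.5 and 62.4 CPM in RCAS(A), and a log2 fold change of -0.66 (edgeR adjusted p = 0.00154, SE 0.090). ALPK2 (767644 to 796574), an alpha-kinase gene, had 3.02, 5.65 and 6.10 CPM in RCAS(A)-Wnt9a, against 12.3, 13.4 and 13.2 CPM in RCAS(A). It fell furthest of the 13, with a log2 fold change of -1.40 (edgeR adjusted p = 0.00398, SE 0.21), and replicate 1 was the lowest pool. ENSGALG00000004518 (22291806 to 22310732) had 4.50, 4.27 and 4.03 CPM in RCAS(A)-Wnt9a, against 6.26, 7.83 and 7.06 CPM in RCAS(A), and a log2 fold change of -0.72 (edgeR adjusted p = 0.0311, SE 0.16).

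**Figure D5:**
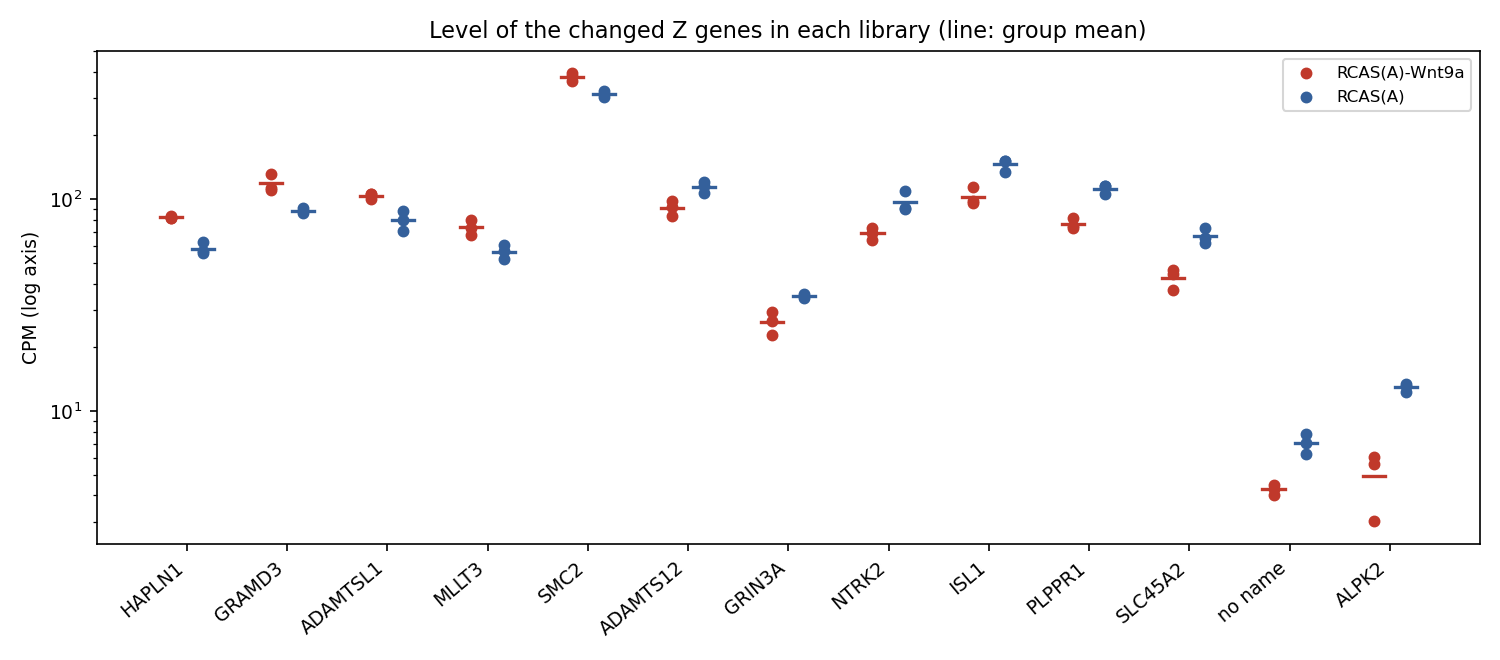
CPM (log axis) of the 13 changed Z genes in each library, RCAS(A)-Wnt9a in red and RCAS(A) in blue, with a line at each group mean. The groups do not overlap for any of the 13, and ALPK2 shows the widest gap, with 3.02 to 6.10 CPM in RCAS(A)-Wnt9a and 12.3 to 13.4 CPM in RCAS(A).

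A short stretch of Z held several lower genes side by side. ADAMTS12, RXFP3 (10173889 to 10175311), a relaxin peptide receptor gene, and SLC45A2 are consecutive tested genes with log2 fold changes of -0.34, -1.28 and -0.66. They formed the longest run of neighbouring Z genes with the same direction and an unadjusted p under 0.05, and 6 other runs had 2 genes. Runs on other chromosomes are not given here, so these run lengths have no background. RXFP3 missed the threshold (edgeR adjusted p = 0.0996) at low counts, with 0.315, 0.579 and 0.318 CPM in RCAS(A)-Wnt9a, against 1.04, 0.824 and 1.13 CPM in RCAS(A). The next tested gene was flat, with a log2 fold change of 0.078. It was followed by ENSGALG00000027887 (10228699 to 10246653), with 5.67, 3.20 and 4.94 CPM in RCAS(A)-Wnt9a, against 7.77, 14.8 and 8.49 CPM in RCAS(A), and a log2 fold change of -1.17 (edgeR adjusted p = 0.0951). After it came ENSGALG00000003353 (10323539 to 10401787), with a log2 fold change of -0.22 (edgeR adjusted p = 0.101). ENSGALG00000027887 and ENSGALG00000003353 form 1 of the 6 other runs, so that run is part of the same stretch. This stretch was chosen after its values were seen. Over the whole chromosome, the 13 called genes had 25 distinct immediate tested neighbours, RXFP3 among them, of which 0 were called by edgeR at an adjusted p under 0.05 and 14 had the same sign as the called gene. With 2.18% of tested Z genes called, 0 of 25 is near the background. The 14 of the same sign have no such background here. Of tested Z genes 58.3% had a positive log2 fold change, and the called genes were of both signs.

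Of the genes with a partner on W, 2 have names here, and both missed the threshold. chPKCI (44758625 to 44762622), which the authors' tables describe as histidine triad nucleotide-binding protein 1 (HINT1), a gene whose diverged W partner is known in birds, had 55.6, 56.1 and 56.6 CPM in RCAS(A)-Wnt9a, against 62.6, 67.7 and 72.2 CPM in RCAS(A). The RefSeq table lists the name chPKCI under HINT2, so its place among genes with a W partner rests on the authors' description. Its RCAS(A)-Wnt9a pools were nearly level, and the log2 fold change was -0.27 (edgeR adjusted p = 0.0666, SE 0.068). Smad7a (1242943 to 1267970), which encodes the inhibitory SMAD of BMP and TGF-beta signalling SMAD7, had 20.7, 19.8 and 21.3 CPM in RCAS(A)-Wnt9a, against 16.7, 16.2 and 15.8 CPM in RCAS(A), with a log2 fold change of 0.34 (edgeR adjusted p = 0.0957). No other gene of the signalling list was named on Z. Of the gonadal sex genes, DMRT3 (25868098 to 25875676), a DM domain transcription factor gene, was named and had too few counts for the main fit, 45 in all. It had 0.135, 0.134 and 0.159 CPM in RCAS(A)-Wnt9a, against 0.475, 0.320 and 0.888 CPM in RCAS(A). In the authors' deposited table from edgeR its log2 fold change is -1.93 (FDR 0.0269), and that from DESeq2 does not list it.

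The other named Z genes missed the threshold. Their groups did not overlap, which was so for 16% of all tested Z genes and 19% of all tested genes. Being named from tables of changed genes, they were chosen for a difference between these groups. With RXFP3, they are given beyond the rule for named genes, and were picked with their values seen. SLC24A2, a sodium, potassium and calcium exchanger gene, came nearest, with 4.68, 3.92 and 4.09 CPM in RCAS(A)-Wnt9a, against 2.07, 2.43 and 2.76 CPM in RCAS(A), and a log2 fold change of 0.81 (edgeR adjusted p = 0.0515). Positive log2 fold changes were also fitted for CHSY3, a chondroitin sulfate synthase gene (0.39), SETBP1 (0.28), SEPP1, the selenium carrier selenoprotein P (0.25), and PDE8B, a cyclic AMP phosphodiesterase gene (0.93). Negative ones were fitted for the lipoprotein lipase gene LPL (-0.38), the acyl-CoA thioesterase gene ACOT12 (-0.60) and TAL2, a basic helix-loop-helix gene (-1.81, from 70 counts in all). The adjusted p of these genes lay between 0.0717 (CHSY3) and 0.115 (ACOT12). The authors' deposited table from edgeR lists 29 Z genes, or 5.8% of its 500 genes, and that from DESeq2 lists 21, or 4.81% of its 437 genes, while Z genes were 4.90% of all genes tested here. No W gene is in either.

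Leaving out 1 library, 7 of the 13 calls passed in all 6 fits: PLPPR1, HAPLN1, SLC45A2, ISL1, ALPK2, GRAMD3 and NTRK2. SMC2, GRIN3A and ENSGALG00000004518 passed in 1 of the 6, with adjusted p up to 0.178, 0.152 and 0.129, ADAMTS12 in 2 (up to 0.146), MLLT3 in 3 (up to 0.0971) and ADAMTSL1 in 4 (up to 0.0665). Of the 13, 8 were called without RCAS(A) replicate 2 or 4, 9 without RCAS(A) replicate 3 or RCAS(A)-Wnt9a replicate 3, and 10 without RCAS(A)-Wnt9a replicate 1 or 2. The share of all tested genes called in these fits was 2.28%, 1.57% and 2.4% without RCAS(A)-Wnt9a replicates 1, 2 and 3, and 1.21%, 1.57% and 1.19% without RCAS(A) replicates 2, 3 and 4. DESeq2 called 20 Z genes, or 3.36%, against 3.59% of all tested genes, and 3 Z genes, or 0.504%, passed edgeR with at least a 1.5-fold change, against 0.956% of all tested genes. Where nothing says how the pools were assembled beyond their number of papillas, the p-values measure the spread between these pools.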

How the data were processed

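Gene counts deposited by the authors are whole numbers, 1 column for each of 6 libraries. TopHat2, edgeR, DESeq, DESeq2 and galGal4 are named per the submitters' processing notes. How reads were counted, the strand setting and the annotation are not given in the sources, so overlapping genes (73 of the Z genes share a listed position with another gene) cannot be told apart. The authors' FPKM table gives 1 pooled FPKM per group and each gene's position. The authors' DESeq2 and edgeR tables hold, per the file headers, a mean signal, log2 fold changes, a Wald score and p-values, and supplied names.

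Members and lists were chosen with earlier results of these data known. Counts were filtered (filterByExpr), scaled by TMM and tested over all genes with edgeR 4.0.16 (glmQLFit, robust; two-sided; Benjamini-Hochberg) in R 4.3.3. The SE is the log2 fold change divided by the square root of F. The common biological coefficient of variation was 8.06%. The fit was tested on simulated data, where 11 of 148 calls were false. It recovered 10% of simulated 1.2-fold changes, 74% of 1.5-fold, 90% of 2-fold and 100% of 4-fold changes. Medians and shares used Python 3.11.15, pandas 2.3.3 and scipy 1.17.1. Alternatives used DESeq2 1.42.0 and limma 3.58.1. The rule for named genes took Z genes with a name that passed, list members and genes without a name of smallest p; the other named genes were added with their values seen. Of the Z genes listed, 139 had no count and 62 had 1 to 9; just outside the minimum of 10 counts stood 18 genes with 5 to 9, and just inside it 14 with 10 to 14. No sequence table was used here. Counts on the 295 genes without a listed position were used in scaling and left out of shares. chPKCI and Smad7a were matched to the lists' HINT1 and SMAD7 through the authors' descriptions, after the data were seen. The replicate numbers did not show pairing, and the main fit has no block. Results of 1 named Z gene are not reported here.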

Additional observations from a re-analysis of the deposited data

How the results depend on the processing

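The count of 13 changed Z genes was 12 to 16 with limma-voom, other scalings (TMM from autosomal genes alone included), other filters and the W covariate. It was 20 with DESeq2, against 3.59% of all genes, 3 with at least 1.5-fold (ALPK2, SLC45A2 and ENSGALG00000004518), and 8 to 12 with 1 library left out, lowest without RCAS(A) replicate 2 or 4; the cause was not tested. All 13 were among the 20. Named genes that DESeq2 added included SETBP1, SEPP1, RORB, chPKCI and CHSY3. SLC24A2 was added by limma-voom (adjusted p = 0.0498) and, with edgeR, by the other filters (edgeR adjusted p = 0.0444 and 0.0476). It was not added by DESeq2 (DESeq2 adjusted p = 0.0564). No named gene changed sign under any alternative. Of the W genes, 0 were called with DESeq2, limma-voom, the other scalings and filters, the replicate block or 1 library left out, and 1 had an unadjusted edgeR p under 0.05 without RCAS(A)-Wnt9a replicate 3. The Z median log2 fold change lay between 0.0046 and 0.026 outside the fits without 1 library, and between -0.010 and 0.052 in those, negative only without RCAS(A)-Wnt9a replicate 3. The difference of Z shares (RCAS(A)-Wnt9a minus RCAS(A)), 0.013 percentage points, was -0.073 without that library and -0.017 without RCAS(A) replicate 3, alternatives chosen after the data were seen. The Z to autosome FPKM ratio in RCAS(A)-Wnt9a was 0.859 with every gene above 0 FPKM and 0.770 for upper quartiles (0.832 and 0.780 in RCAS(A)). The groups share only replicate numbers 2 and 3, and libraries of the same number had correlations of -0.0092 and 0.19 in their deviations, which does not show pairing. A replicate block over those 4 libraries called 15 of 593 Z genes, or 2.53%, against 484 of 11415 autosomal genes, or 4.24%. With a block and 4 libraries, that fit has little left to estimate the spread from. Its counts therefore do not compare directly with those from all 6 libraries. The 15 Z genes included 11 of the 13, without GRIN3A and SMC2. Low counts kept 52 Z genes, DMRT3 among them, out of the main fit. The filter that kept every gene with 1 count tested all 647 and called 14, or 2.16%, against 2.16% of autosomal genes. These were the 13 and SLC24A2, so DMRT3 was not called there.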
